A study of Mus musculus with 12 samples.

Results

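The genes described here are 9 complement components and regulators, chosen by name: C1qa, C1qb, C1s, C2, C3, C4b, Cfb, Cfd and Cfp. Every probe of the array whose symbol equals one of these names was taken, out of 46632 probes and 34509 symbols. There were 9 such probes for 8 genes, 2 of them for C1s, and no probe carried the symbol C4b, so C4b was not analysed here. All 8 genes kept a probe after probes that were rarely above background had been removed, as did 14317 symbols in all.

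RNA was measured with Illumina bead arrays in femoral head cartilage of mice aged 21 days, cut out and kept in culture as explants. The explants were left untreated or were treated for 3 days with 10 ng/mL IL-1α or 10 µM retinoic acid (RA), with 4 arrays per treatment and 12 in all. Every mouse was TS-4/5∆cat, carrying in-frame deletions of the exons for the catalytic domains of ADAMTS-4 and ADAMTS-5, so there was no wildtype group and all comparisons lie within this genotype. The arrays came from 2 lines of this genotype, called Donut and Gertrude, with 2 arrays per treatment and line; Donut was batch 1 and Gertrude batch 2, so line and batch cannot be told apart. The array batches stood well apart, since 76.3% of the 18200 kept probes differed between batch 2 and batch 1. Between 13786 and 19485 probes were detected on an array. As checks of treatment, Nos2 was detected on the 4 IL-1α arrays and on none of the other arrays, and Cyp26a1 on the 4 RA arrays and on none of the others. Levels are normalised log2 intensities, on which a difference of 1 is a doubling; an array gives no order of levels between different probes.

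Complement is a cascade of plasma proteins that marks surfaces for uptake and lysis. The classical route starts with C1, in which C1q recognises the target and the proteases C1r and C1s pass the signal on by cutting C4 and C2. The alternative route builds on C3 itself with factor B and factor D and is held together by properdin. Both routes meet in the cutting of C3. Most of these proteins are made in the liver, but macrophages are a well-known source of C1q, adipocytes of factor D, and many tissue cells make C3 and factor B when exposed to inflammatory cytokines.

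IL-1α and RA moved the members in different patterns. With IL-1α, C1s, C2, C3 and Cfb rose and C1qa, C1qb, Cfd and Cfp fell, that is 4 higher and 4 lower of 8. Over all kept probes, 15.2% were higher and 14.1% lower in that comparison. With RA, C1qa, C1qb, C2 and Cfp rose, C1s and Cfd fell, and C3 and Cfb did not pass the test, that is 4 higher and 2 lower, beside 18.2% higher and 17.1% lower of all kept probes. Between the treatments, C1qa, C1qb and Cfp were higher with RA and C1s, C3 and Cfb were higher with IL-1α, while C2 and Cfd did not pass the test. The background there was 15.2% of all probes higher with RA and 15.8% lower. The median size of the difference over the 8 genes was 1.66 on the log2 scale with IL-1α, 1.02 with RA and 2.28 between the treatments, whereas over all kept probes it was 0.25, 0.27 and 0.24. The 4 arrays of each treatment did not overlap for 4, 4 and 6 of the 8 genes in these comparisons, beside 13.5%, 16.9% and 17.7% of all kept probes. These calls come from a linear model in limma with treatment and a factor for batch and replicate, at a Benjamini-Hochberg adjusted p of 0.05 over all kept probes. The comparisons of IL-1α and RA with untreated explants share the untreated arrays.

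**Figure D1:**
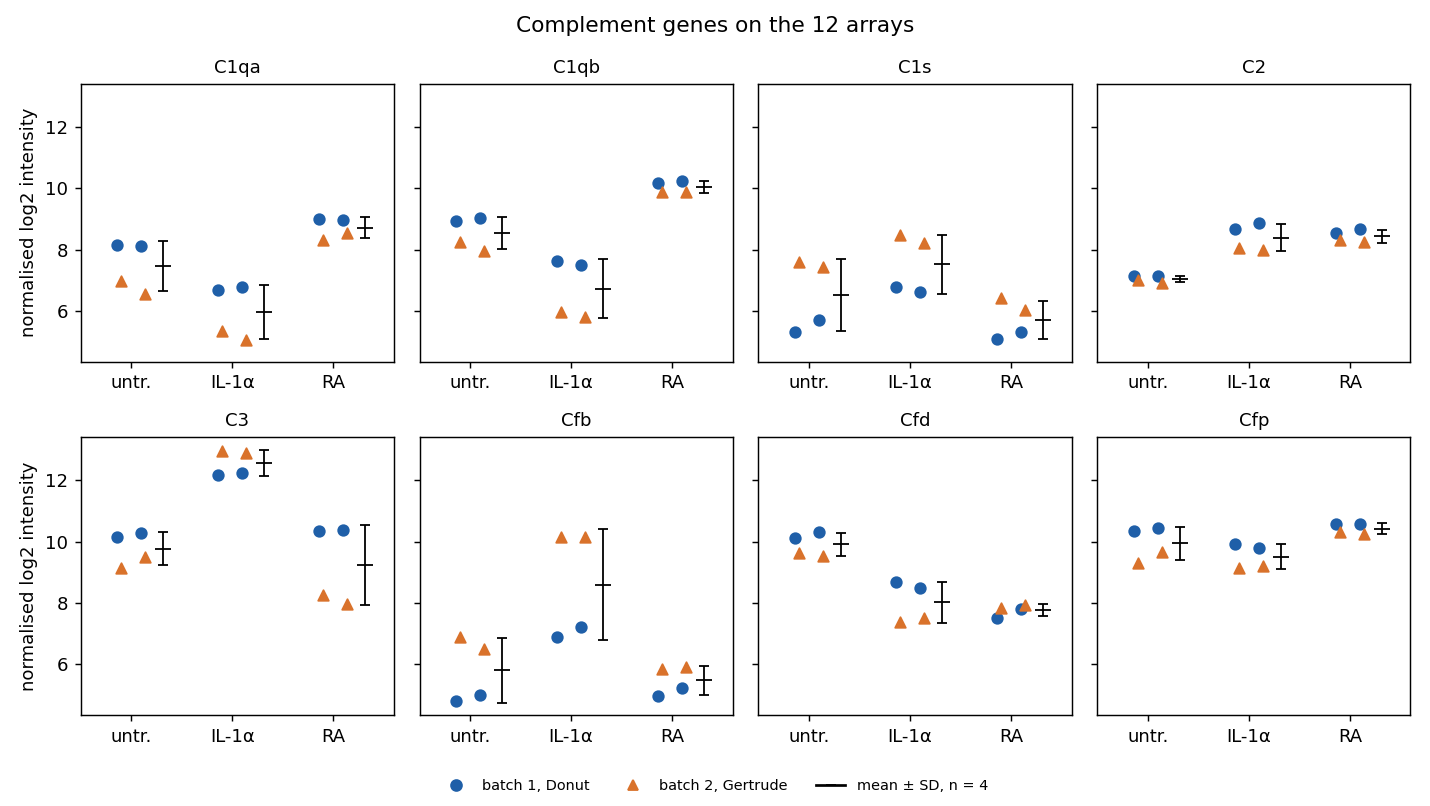
Normalised log2 intensity of the 8 complement genes on the 12 arrays, by treatment (untr., untreated; RA, retinoic acid). Circles are batch 1 (Donut), triangles batch 2 (Gertrude), and bars give the mean ± SD over 4 arrays; C3 with IL-1α lies between 12.17 and 12.97, above every other array of that gene.

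Among the initiating genes, C1qa and C1qb, which encode chains of the recognition subunit C1q, went opposite ways with the treatments. In what follows, values are given for batch 1 replicates 1 and 2 and then batch 2 replicates 1 and 2. C1qb had log2 intensities of 8.93, 9.02, 8.25 and 7.95 in untreated explants, 7.63, 7.48, 5.96 and 5.81 with IL-1α, and 10.17, 10.24, 9.89 and 9.87 with RA. No group overlapped with another: every IL-1α array was below and every RA array above all untreated arrays. C1qb fell by 1.82 on the log2 scale with IL-1α (SE 0.22, limma adjusted p = 5.69e-05), which is 3.52-fold lower, and rose 2.84-fold with RA (log2 difference 1.51, SE 0.22, limma adjusted p = 1.33e-04). It was 10.0-fold higher with RA than with IL-1α (limma adjusted p = 1.11e-07), and this difference ranked 34 from the highest of the 18200 kept probes.

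C1qa had log2 intensities of 8.16, 8.12, 6.99 and 6.56 in untreated explants, 6.69, 6.77, 5.35 and 5.06 with IL-1α, and 9.01, 8.97, 8.31 and 8.55 with RA. The RA arrays lay above all others, whereas the IL-1α arrays of batch 1 overlapped with the untreated arrays of batch 2, although within each batch every IL-1α array was the lower. C1qa fell by 1.49 on the log2 scale with IL-1α (SE 0.19, limma adjusted p = 9.59e-05) and rose 2.38-fold with RA (log2 difference 1.25, SE 0.19, limma adjusted p = 2.06e-04). A 2-sided exact permutation test over the 8 arrays without regard to batch gave p = 0.0857 for IL-1α and p = 0.0286 for RA, the smallest value that 4 against 4 allows. With RA against IL-1α the difference was 2.74 (limma adjusted p = 1.89e-07). The third chain, C1qc, is no member but belongs to the same protein and had 8.21, 8.41, 7.87 and 8.05 untreated, 6.37, 6.27, 5.78 and 5.78 with IL-1α, and 9.25, 9.39, 9.35 and 9.34 with RA. Its groups did not overlap either, and it fell by 2.08 with IL-1α (limma adjusted p = 2.72e-07) and rose by 1.20 with RA (limma adjusted p = 1.57e-05). In bulk tissue, fewer cells of a type and less RNA per cell cannot be told apart.

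C1qa, C1qc and C1qb are neighbours in the RefSeq annotation of the mouse genome (GRCm38.p6). The promoter windows of C1qb (chr4:136886151-136886450, minus strand) and C1qc (chr4:136892865-136893164, minus strand) are shown because these genes moved together with both agents; a window holds 250 bases before and 50 bases after the annotated start, 5′ to 3′ along the gene, from RefSeq. Such windows were at hand for 5 of the 9 genes (C1qb, C1s, C3, Cfd and Cfp). Capitals mark matches, on either strand, to an NF-kB consensus, to the GAS motif TTCNNNGAA, to the C/EBP core TTGCNNAAT or to the retinoid receptor motif AGGTCA.
C1qb: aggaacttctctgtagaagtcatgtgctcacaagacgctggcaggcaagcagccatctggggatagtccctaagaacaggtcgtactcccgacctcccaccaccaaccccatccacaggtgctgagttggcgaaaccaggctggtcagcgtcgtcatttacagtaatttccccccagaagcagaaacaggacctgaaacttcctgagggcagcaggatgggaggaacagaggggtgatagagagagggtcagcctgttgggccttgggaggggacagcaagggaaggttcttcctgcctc
C1qc: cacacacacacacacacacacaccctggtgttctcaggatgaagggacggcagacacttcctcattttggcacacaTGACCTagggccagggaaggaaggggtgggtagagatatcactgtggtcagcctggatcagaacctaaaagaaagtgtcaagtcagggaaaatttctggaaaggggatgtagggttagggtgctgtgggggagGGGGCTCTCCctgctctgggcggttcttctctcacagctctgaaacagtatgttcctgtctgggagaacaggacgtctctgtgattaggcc
The C1qb window held no match to these letters. In the C1qc window there was an NF-kB match from 41 to 32 bases before the start and, on the opposite strand, a retinoid receptor motif from 174 to 169 bases before it. Of 32851 windows of all genes, 4.51% held the NF-kB consensus, 8.3% GAS, 2.4% the C/EBP core and 16.3% the retinoid receptor motif. A match is a description of the letters and not evidence that a factor binds.

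C1s, the protease of the C1 complex (named C1s1 in the current annotation), had the mirror pattern of C1q. Its log2 intensities were 5.31, 5.69, 7.59 and 7.43 in untreated explants, 6.77, 6.63, 8.48 and 8.20 with IL-1α, and 5.09, 5.31, 6.41 and 6.03 with RA. Batch 2 was higher than batch 1 in every treatment, so the groups overlapped across batches, but within each batch IL-1α was highest and RA lowest on average. On the RA arrays of batch 1 the probe was not above background. C1s rose by 1.02 with IL-1α (SE 0.18, limma adjusted p = 0.0012) and fell by 0.80 with RA (SE 0.18, limma adjusted p = 0.00411), while the permutation tests that ignore batch gave exact p = 0.229 and 0.286. The RA arrays did not overlap with the IL-1α arrays and were 3.51-fold lower (limma adjusted p = 5.73e-06). In batch 1, where RA was not above background, C1s was at least 2.55-fold higher with IL-1α than with RA. The second C1s probe was not above background on any of the 12 arrays and was removed.

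C2, the substrate of C1s that becomes the catalytic part of the classical C3 convertase, rose with both agents. It had 7.13, 7.13, 7.01 and 6.90 untreated, 8.68, 8.85, 8.05 and 7.99 with IL-1α, and 8.53, 8.67, 8.30 and 8.23 with RA. Every treated array was above every untreated array, and the treated groups overlapped with each other. The rise was 2.55-fold with IL-1α (log2 difference 1.35, SE 0.13, limma adjusted p = 1.05e-05) and 2.61-fold with RA (log2 difference 1.39, SE 0.13, limma adjusted p = 3.41e-06). RA and IL-1α differed by 0.04, with a 95% interval from -0.25 to 0.32 (limma adjusted p = 0.873), so a difference beyond that interval was not seen. C2 and Cfb are neighbours in the annotation, yet Cfb did not pass the test with RA.

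C3 is the component at which the routes meet. Together with Cfb, whose untreated arrays of batch 1 were not above background, it had the highest fitted rise of the members with IL-1α. Its log2 intensities were 10.16, 10.28, 9.16 and 9.51 in untreated explants, 12.17, 12.26, 12.97 and 12.91 with IL-1α, and 10.36, 10.38, 8.25 and 7.96 with RA. All IL-1α arrays lay above all others; with RA, batch 1 stayed near its untreated arrays and batch 2 was below them. C3 rose 6.96-fold with IL-1α (log2 difference 2.80, SE 0.43, limma adjusted p = 4.28e-04) and ranked 24 from the highest of the 18200 kept probes. The difference between RA and untreated was -0.54, with a 95% interval from -1.48 to 0.40 (limma adjusted p = 0.373). Between the treatments C3 was 10.1-fold lower with RA (limma adjusted p = 6.01e-05).

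The promoter window of C3 (chr17:57228087-57228386, minus strand, GRCm38.p6) is shown because C3 was among the strongest rises with IL-1α, and it is set beside that of Cfd (chr10:79890603-79890902, plus strand), which fell with both agents.
C3: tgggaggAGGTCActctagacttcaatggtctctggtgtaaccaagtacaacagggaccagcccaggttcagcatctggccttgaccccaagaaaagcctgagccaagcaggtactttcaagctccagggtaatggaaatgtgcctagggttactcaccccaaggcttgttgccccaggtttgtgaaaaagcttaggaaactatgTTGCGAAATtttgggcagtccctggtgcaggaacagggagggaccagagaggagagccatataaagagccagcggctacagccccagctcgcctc
Cfd: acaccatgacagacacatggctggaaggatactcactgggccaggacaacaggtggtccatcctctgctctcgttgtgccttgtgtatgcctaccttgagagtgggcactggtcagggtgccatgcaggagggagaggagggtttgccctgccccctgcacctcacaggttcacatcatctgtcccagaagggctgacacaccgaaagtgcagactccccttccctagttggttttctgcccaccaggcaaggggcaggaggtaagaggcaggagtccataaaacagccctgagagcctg
The C3 window held a C/EBP core match from 45 to 37 bases before the annotated start and a retinoid receptor motif from 243 to 238 bases before it. The Cfd window held no match to the letters searched. Of the windows not shown, that of Cfp held a retinoid receptor motif from base 39 to base 44 after the start, and 1 of 2 windows of C1s held a C/EBP core match, 243 to 235 bases before the start.

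Cfb, which encodes factor B, the catalytic part of the alternative C3 convertase, had log2 intensities of 4.82, 4.99, 6.89 and 6.52 in untreated explants, 6.89, 7.22, 10.16 and 10.16 with IL-1α, and 4.96, 5.23, 5.85 and 5.92 with RA. Within each batch both IL-1α arrays were above all others, but the lowest IL-1α array, of batch 1, was level with the highest untreated array, of batch 2. In batch 1 the probe was not above background on any untreated or RA array. Cfb rose by 2.80 on the log2 scale with IL-1α (SE 0.34, limma adjusted p = 6.88e-05; exact permutation p = 0.0571), rank 26 from the highest. In batch 1 that is a rise of at least 3.40-fold over untreated and of at least 3.26-fold over RA. RA against untreated gave -0.32, with a 95% interval from -1.06 to 0.42 (limma adjusted p = 0.513), and Cfb was 8.67-fold lower with RA than with IL-1α (log2 difference -3.12, limma adjusted p = 1.32e-05).

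Cfd, which encodes factor D (adipsin), the protease that cuts factor B, was the member that fell with both agents. It had 10.14, 10.31, 9.65 and 9.55 in untreated explants, 8.69, 8.49, 7.39 and 7.53 with IL-1α, and 7.52, 7.80, 7.85 and 7.95 with RA. All treated arrays lay below all untreated arrays. The fall was 3.70-fold with IL-1α (log2 difference -1.89, SE 0.22, limma adjusted p = 5.41e-05) and 4.38-fold with RA (log2 difference -2.13, SE 0.22, limma adjusted p = 8.62e-06). RA and IL-1α differed by -0.24, with a 95% interval from -0.73 to 0.24 (limma adjusted p = 0.465), but in opposite directions in the batches: RA was lower than IL-1α by -0.92 in batch 1 (limma adjusted p = 2.34e-04) and higher by 0.44 in batch 2 (limma adjusted p = 0.0417).

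Cfp, which encodes properdin, the stabiliser of the alternative convertase, had the smallest difference of the 8 between IL-1α and untreated. It had 10.35, 10.45, 9.32 and 9.68 untreated, 9.92, 9.80, 9.15 and 9.20 with IL-1α, and 10.58, 10.57, 10.32 and 10.24 with RA. The untreated group overlapped with both treated groups, and the RA arrays were all above the IL-1α arrays. RA exceeded IL-1α 1.88-fold (log2 difference 0.91, SE 0.14, limma adjusted p = 2.84e-04). Against untreated, IL-1α gave -0.44 (SE 0.14, limma adjusted p = 0.0356) and RA 0.47 (SE 0.14, limma adjusted p = 0.0196). Neither call held in every case when 1 array was left out. The IL-1α call was lost without any one of 7 arrays, all 4 of IL-1α and 3 untreated, with limma adjusted p-values of 0.0551 to 0.144. The RA call was lost without any one of the 4 untreated or RA arrays of batch 2, with limma adjusted p-values of 0.0509 to 0.0843. Within batches 1 and 2, IL-1α gave -0.54 and -0.33 (limma adjusted p = 0.011 and 0.142). RA gave 0.17 and 0.78 (limma adjusted p = 0.431 and 8.82e-04). The differences between the batches did not pass for either agent (limma adjusted p = 0.607 and 0.173).

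**Figure D2:**
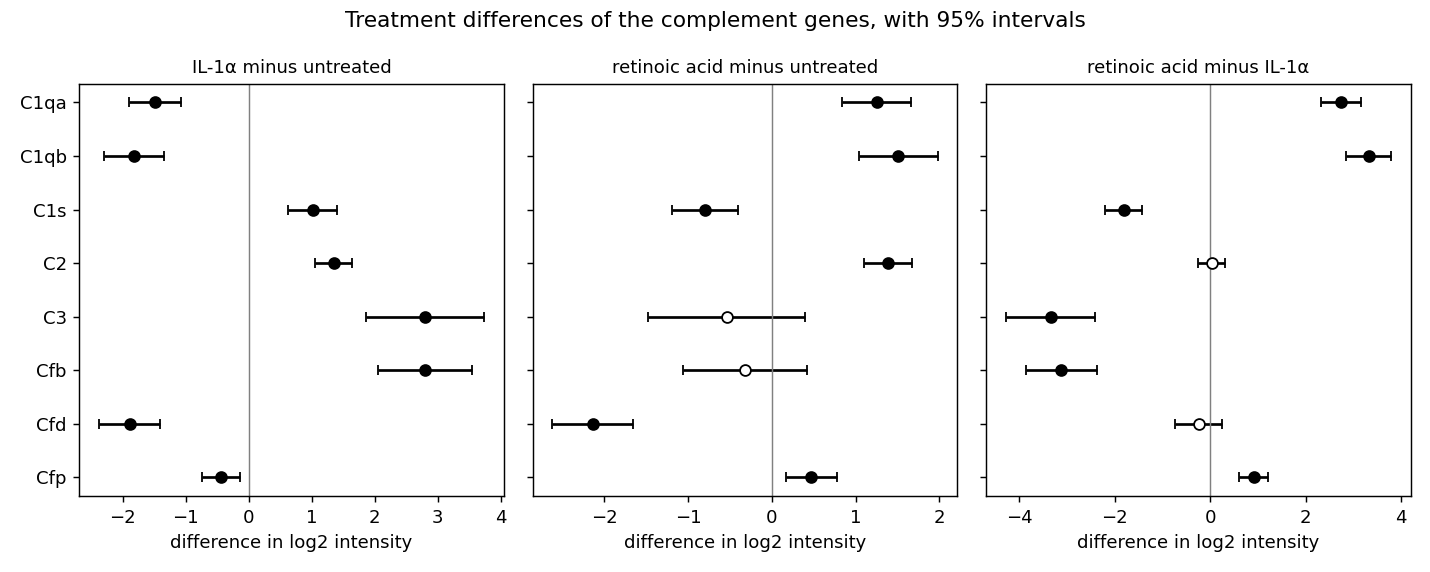
Difference in log2 intensity between treatments for each complement gene, with 95% intervals from the limma model over 12 arrays; filled points passed the adjusted p of 0.05 and open points did not. C3 and Cfb lie furthest right with IL-1α (both 2.80), and C2 lies to the right of 0 with both agents. In batch 1 the Cfb probe was not above background untreated or with RA, nor the C1s probe with RA. Points of these 2 genes that use those groups take that signal as a level.

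The size of several treatment differences was not the same in the 2 batches, which cannot be told apart from the 2 lines. The test of the treatment by batch term passed for C1qb, C3 and Cfb with IL-1α against untreated, where 4.82% of all kept probes passed. It passed for C1s, C3, Cfb and Cfd with RA against untreated, where 2.86% of all kept probes did, and for C1qa, C1qb, C3, Cfb and Cfd with RA against IL-1α, where 8.76% did. C3 rose by 1.99 with IL-1α in batch 1 and by 3.60 in batch 2 (difference 1.61, SE 0.22, limma adjusted p = 0.00111). Cfb rose by 3.45 in batch 2 and by at least 1.77 in batch 1, where no untreated array was above background. Its fitted batch difference of 1.31 (limma adjusted p = 0.0076) takes that background signal as a level, so it is not a measured size and would be smaller if the true untreated level in batch 1 were lower. C1qb fell more in batch 2, with -1.42 in batch 1 and -2.21 in batch 2 (difference -0.80, limma adjusted p = 0.0419).

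With RA, C3 gave 0.15 in batch 1 (limma adjusted p = 0.504) and -1.23 in batch 2 (limma adjusted p = 2.19e-05), and these differed by -1.38 (SE 0.22, limma adjusted p = 0.00273). Cfb gave 0.18 and -0.82, C1s -0.30 and -1.29, and Cfd -2.56 and -1.70 in batches 1 and 2, with batch differences of -1.0, -0.99 and 0.86 and limma adjusted p-values of 0.0362, 0.0492 and 0.0452. In batch 1 the Cfb probe was not above background in either of these groups, so its 0.18 and its batch difference rest on background signal and measure no change. The C1s probe was not above background with RA in batch 1, where its fall has only a lower bound of 0.15 on the log2 scale. The batch difference with RA lost its call on leaving out any one of 11 arrays for C1s and for Cfd and of 9 for Cfb (highest limma adjusted p = 0.237, 0.237 and 0.189). That of C1qb with IL-1α lost it without any one of 11 arrays (highest 0.161), that of Cfb with IL-1α without IL-1α replicate 1 of batch 1 (0.0571), and that of C1qa with RA against IL-1α without any one of 6 (highest 0.108). The 3 batch differences of C3 kept their call on leaving out any 1 of the 12 arrays.

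Averaged over treatments, all 8 genes differed between the batches after quantile normalisation, but when arrays were scaled to one median in its place, 3 of 8 did (C1qa, C1s and Cfb). C1s was higher in batch 2 by 1.56 and Cfb by 1.90 (limma adjusted p = 1.13e-07 and 6.86e-06). The others were lower in batch 2, from -1.15 for C1qa to -0.42 for C2, but under the scaling to one median C1qa was at -0.44, C1qb, C3 and Cfp no longer passed (-0.39, -0.37 and -0.25), and C2 and Cfd turned to 0.30 and 0.13. The lower level of C3 in batch 2 (-0.81, limma adjusted p = 0.0321) lost its call without any one of 7 arrays, with adjusted p-values of 0.0511 to 0.0931. The scaling to one median moves the median of all kept probes between batches from -0.13 to 0.39, and moved no treatment comparison's median past 0.08.

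**Figure D3:**
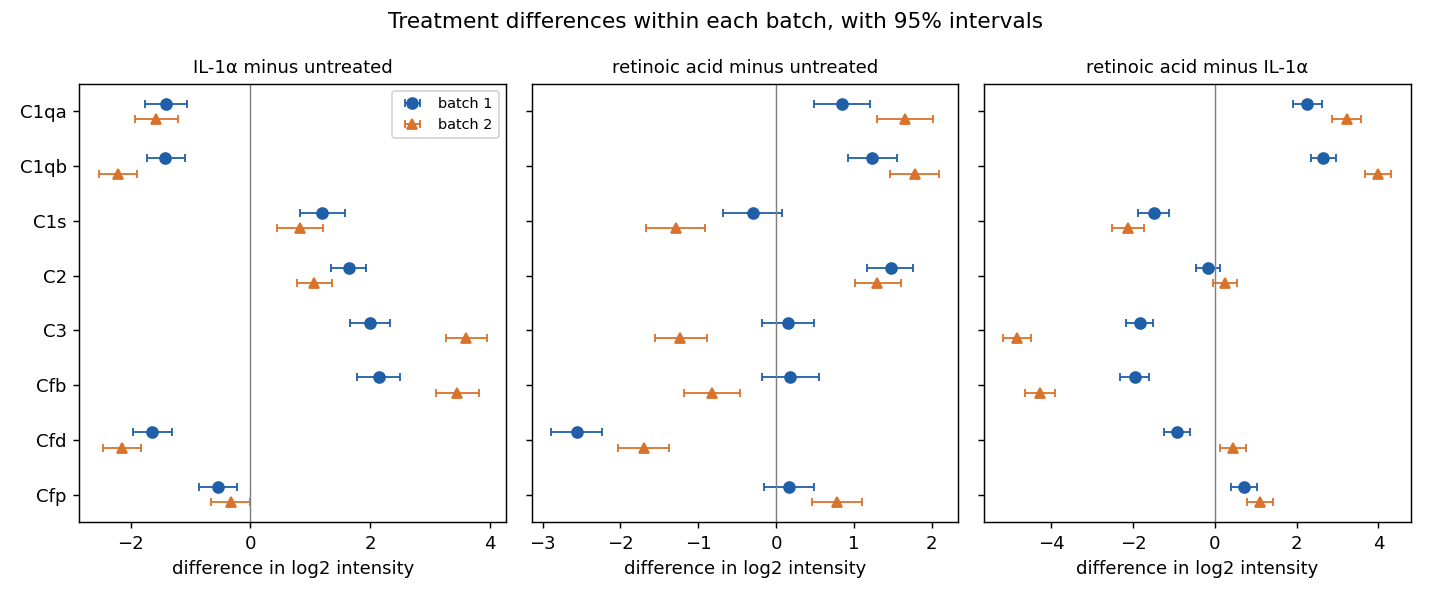
Difference in log2 intensity between treatments within batch 1 (circles) and batch 2 (triangles), with 95% intervals from a limma model with 6 group means. C3 with RA against untreated lies at 0.15 in batch 1 and at -1.23 in batch 2; for Cfb and C1s, batch 1 holds groups that were not above background.

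Other genes of the system were taken from 4 lists: classical and lectin pathway, terminal pathway, inhibitors, and receptors. Of 45 genes with a probe, 17 kept one. In the classical and lectin list, with 7 kept genes, 3 fell and 0 rose with IL-1α (C1qc, C4a and Colec12; in limma 0 rose at an unadjusted p under 0.05 too), and 3 rose and 3 fell with RA. C4a and C4b are near-identical copies and the annotation lists C4b among the synonyms of C4a, so which of them its probes report is uncertain. Its brightest probe had 12.67, 12.96, 12.68 and 12.54 untreated, 11.48, 11.44, 11.73 and 11.61 with IL-1α, and 12.27, 12.32, 12.12 and 12.01 with RA, without overlap between groups. It fell by 1.15 with IL-1α (limma adjusted p = 3.06e-05) and by 0.53 with RA (limma adjusted p = 0.00525), and its other 2 probes fell in both comparisons too. Colec12, a scavenger receptor with a collectin domain, fell by 0.91 with IL-1α and rose by 0.84 with RA at its brighter probe, but its dimmer kept probe gave -0.05 with IL-1α (limma adjusted p = 0.864). Fcna, a ficolin of the lectin route, rose by 0.58 with RA (limma adjusted p = 0.018), and C1rl fell by 0.75 (limma adjusted p = 9.51e-04). Masp2 passed the test as lower with RA (limma adjusted p = 0.0405), but it was above background on no RA array and on 2 of the 4 untreated arrays, so no size is given.

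Of the terminal pathway, C6 and C8g kept a probe of 7 genes on the array. C6, a component of the membrane attack complex, had 7.07, 7.08, 6.78 and 6.79 with RA and no more than 5.76 on any other array. It rose by 1.86 with RA (limma adjusted p = 6.21e-07), from untreated arrays of which 3 of 4 were not above background. C8g fell by 0.65 with IL-1α and by 0.93 with RA (limma adjusted p = 0.0113 and 7.50e-04).

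Among the inhibitors, 5 of 15 genes kept a probe, with 2 rising and 2 falling with IL-1α and 1 rising and 2 falling with RA. Cd59a and Cd59b encode the membrane proteins that block the attack complex, and they fell with both agents. Cd59a went from 8.63, 8.80, 8.35 and 8.77 untreated to between 7.16 and 7.49 with IL-1α and between 7.15 and 7.33 with RA, which are falls of 1.34 and 1.43 (limma adjusted p = 4.46e-06 and 9.44e-07). Cd59b fell by 1.70 and 2.37 (limma adjusted p = 1.01e-05 and 1.95e-07) and was above background on 3 of 4 IL-1α and 2 of 4 RA arrays. These genes are close paralogs, so their probes may share signal. Serping1, the inhibitor of C1r and C1s, rose by 0.56 with IL-1α and 0.83 with RA (limma adjusted p = 0.00314 and 1.14e-04). Crry, the rodent regulator of the C3 convertases now named Cr1l, rose by 0.71 with IL-1α at its brighter probe (limma adjusted p = 0.00996) but gave -0.15 at its dimmer one (limma adjusted p = 0.469).

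Of 10 receptors on the array, 3 kept a probe. Gpr77, now named C5ar2, a second receptor for C5a, was above background on the 4 RA arrays (7.51, 7.26, 6.48 and 6.68) and on none of the others. It was at least 3.64-fold higher with RA than untreated and at least 3.32-fold higher than with IL-1α (limma adjusted p = 2.98e-07 and 1.04e-06). Cd93, once described as a C1q receptor, fell by 0.88 with IL-1α at its brighter probe (limma adjusted p = 9.85e-04), while its dimmer probe gave -0.66 (limma adjusted p = 0.107). C1qbp, a binding protein of C1q that is mainly mitochondrial, rose by 0.42 with IL-1α (limma adjusted p = 0.0331). C3ar1, C5ar1, Itgam and Itgb2 had probes that were removed as dim.

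**Figure D4:**
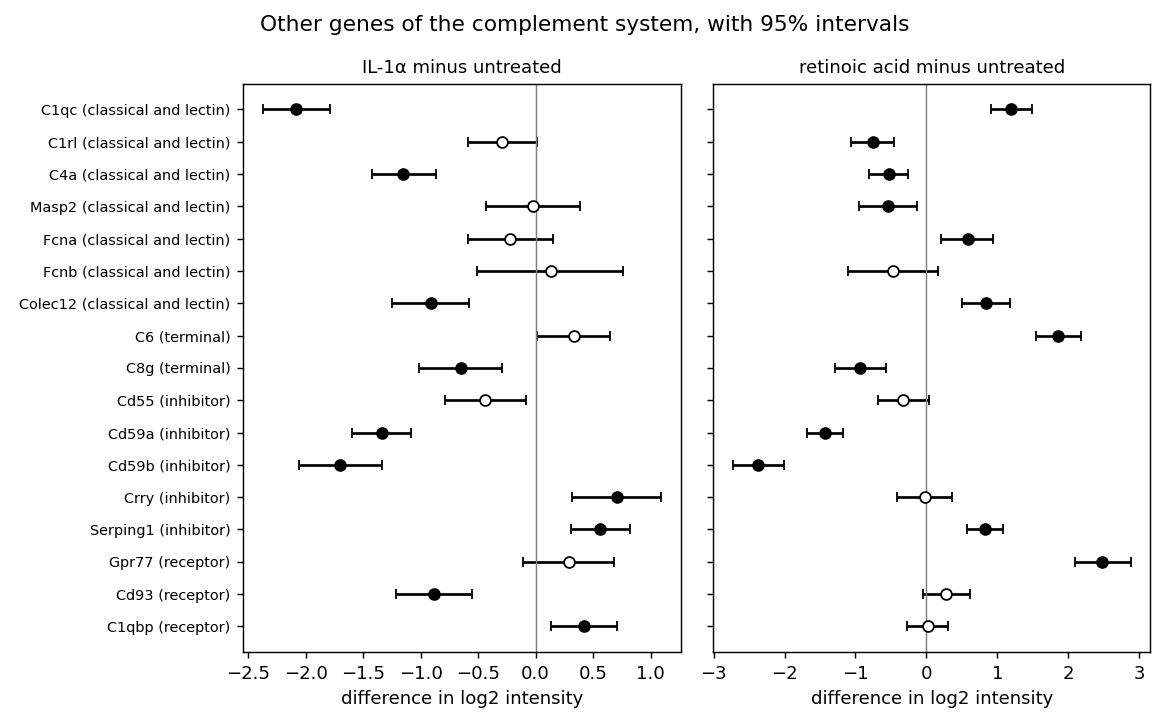
Difference in log2 intensity from untreated explants for the 17 further complement genes that kept a probe, with 95% intervals from the limma model over 12 arrays; filled points passed the adjusted p of 0.05. C1qc lies at -2.08 with IL-1α and at 1.20 with RA; Gpr77 was above background on the RA arrays alone, so its points are not measured sizes, and Masp2 was above background on no RA array.

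Explants of the femoral head hold other cells beside chondrocytes, and lists of marker genes were read beside the members. The lists moved as the members did in some comparisons and not in others. The macrophage list kept 9 of 14 genes, with 5 rising and 0 falling with RA (1 lower at an unadjusted p under 0.05 in limma) and 2 rising and 4 falling with IL-1α. Its mean log2 intensity was 7.70 to 8.16 on the untreated arrays, 7.85 to 7.95 with IL-1α and 7.99 to 8.65 with RA. Among its genes, Aif1 rose by 1.32 with RA, Cd14 by 1.21, Cd68 by 0.73 and Tyrobp by 0.60. Mrc1 gave -0.70, Emr1 -0.11, Lyzs -0.01 and Laptm5 0.03 with RA, and these did not pass. With IL-1α, Lyzs fell by 1.47, Mrc1 by 1.41 and Emr1 by 0.78, whereas Cd14 rose by 2.73 and Cd68 by 0.97. Of its defining markers, Cd68, Lyzs, Cd14 and Laptm5 were above background on all 12 arrays and Emr1 on no batch 1 array. Csf1r, counted among the 5 that rose with RA (0.64, limma adjusted p = 0.0388), was above background on 2 of 4 RA and 1 of 4 untreated arrays. Cd163, Fcgr1, Fcer1g and Ptprc had dim probes that were removed. The part of macrophage content in the C1q differences was not tested.

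The adipocyte list kept 3 of 7 genes, since the probes of Fabp4, Plin, Cidec and Retn were dim. Its mean log2 intensity was 7.96 to 8.10 untreated, 6.40 to 6.95 with IL-1α and 7.87 to 8.15 with RA. Adipoq, the adiponectin gene, fell by 1.57 with IL-1α and by 1.08 with RA, Lpl fell by 1.82 and 0.71, and Pparg fell by 0.88 with IL-1α and rose by 1.75 with RA. Thus 3 of the 3 genes fell with IL-1α, and 2 fell and 1 rose with RA. Lpl with RA gave -1.15 in batch 1 and -0.27 in batch 2 (limma adjusted p = 1.49e-05 and 0.173). These differed between the batches (limma adjusted p = 0.0276). The part of adipocyte content in the Cfd differences was not tested.

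The chondrocyte list, at 12.05 to 12.90 untreated, was 11.06 to 12.16 with IL-1α and 9.18 to 10.16 with RA, with 7 and 9 of its 9 genes falling. All 9 kept genes of this list were above background on every untreated array. The neutrophil list, which bears on Cfp since neutrophils store properdin, was 9.16 to 10.35 untreated, 10.18 to 10.34 with IL-1α and 8.18 to 9.34 with RA, with 6 of its 9 genes falling with RA and 0 passing with IL-1α (2 higher at an unadjusted p under 0.05 in limma). With RA the list went from 10.18 and 10.35 to 8.18 and 8.21 in batch 1. In batch 2 it went from 9.44 and 9.16 to 9.34 and 9.32. By gene, RA gave -3.70 and -0.50 for Mpo and -0.84 and 1.56 for Prtn3 in batches 1 and 2. With IL-1α, Ela2 gave 0.14 and 1.73 and Prtn3 -0.55 and 1.22, so the pooled counts hide differences between batches. The part of the neutrophil list in the Cfp values was not tested. The fibroblast and bone list had 5 of 6 genes falling with IL-1α, and 4 falling and 1 rising with RA (Pdgfra, by 0.95), and the endothelial list 2 of 4 with IL-1α. With RA, 0 of the 4 endothelial genes passed in limma, and of the 3 erythroid genes 0 passed with either agent, counts that are also 0 at an unadjusted p under 0.05. These counts are over both batches. In batch 1 alone, Alas2 gave 1.01 with IL-1α and -1.12 with RA (limma adjusted p = 1.76e-04 and 5.87e-05), against 0.15 with each in batch 2. Hba-a1 with IL-1α gave 0.69 in batch 1 (limma adjusted p = 0.00522) and 0.01 in batch 2.

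**Figure D5:**
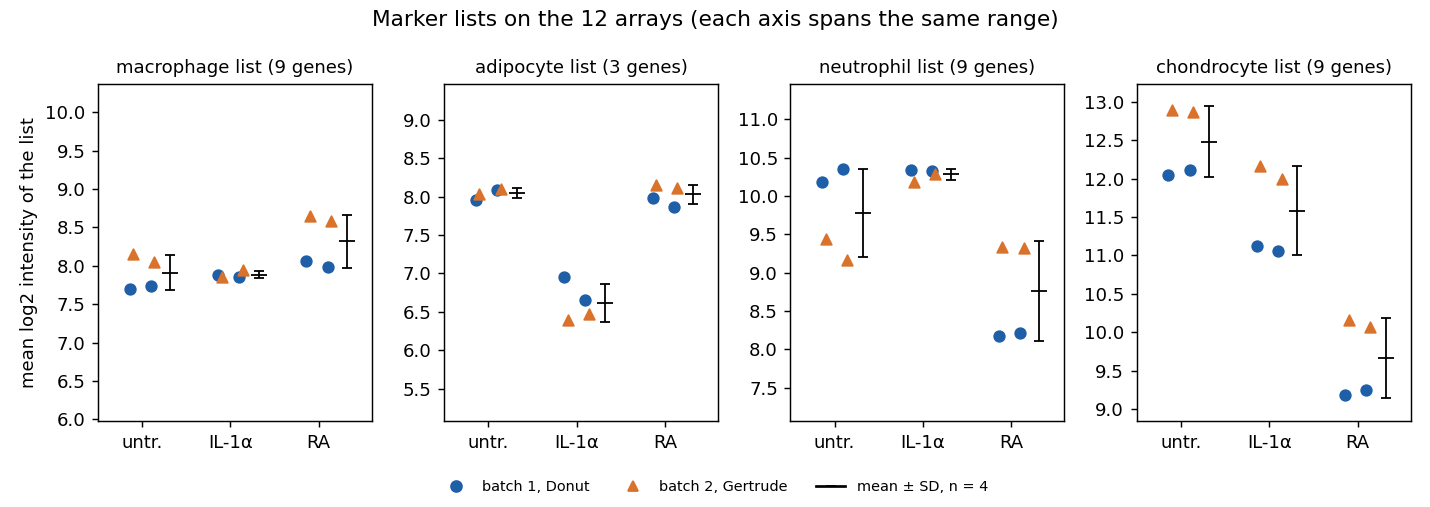
Mean log2 intensity of the kept genes of 4 marker lists on the 12 arrays, by treatment; circles are batch 1 (Donut), triangles batch 2 (Gertrude), bars the mean ± SD over 4 arrays, and every vertical axis spans the same range. The adipocyte list lies between 6.40 and 6.95 with IL-1α, below the other treatments, and the chondrocyte list between 9.18 and 10.16 with RA.

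Over the 12 arrays with each batch's mean taken off, the members fell into patterns that are described here by Pearson's r, with no test, as all arrays share the same 3 treatments. C1qa and C1qb had r = 0.99 with each other, 0.94 and 0.93 with Cfp and -0.97 and -0.95 with C1s. C3 and Cfb had r = 0.99 with each other and 0.90 and 0.89 with C1s. In batch 1, Cfb (untreated and RA) and C1s (RA) were not above background, and r takes that signal as a level. C2 and Cfd stood apart from both patterns and had r = -0.90 with each other. Of genes that are no members, the most like C1qa were Sema5a (0.994), LOC100048436 (0.993) and Cldn10 (0.992), and the most like C1qb were LOC100048436 (0.997), Cldn10 (0.994) and Myl9 (0.994). The most like C1s were LOC667277 (0.985), Ptx3 (0.979) and Lmcd1 (0.979), and for C2 these were Smox (0.992), 6330406I15Rik (0.99) and Sidt2 (0.985). For C3 the nearest were Slc7a2 (0.978), Zc3h12a (0.968) and 2010005H15Rik (0.968), and for Cfb Slc7a2 (0.992), Saa1 (0.983) and Cxcl2 (0.981). For Cfd they were Kif26b (0.975), Tgfbi (0.968) and Vim (0.967), and for Cfp Osr2 (0.973), Col14a1 (0.973) and B130017I01Rik (0.968).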

How the data were processed

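RNA of 12 cartilage explant samples was hybridised to Illumina Sentrix Mouse 1.1 arrays. The authors deposited probe intensities that were not normalised, with a detection score per probe and array; the score columns are headed as p-values but rise with intensity, so detection p was taken as 1 minus the score. The authors then used neqc in limma, per the labels and methods (version not given in the sources used here), a step that the deposited intensities precede. No build is named for the probes.

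Log2 values were computed from the deposited intensities with neqc of limma 3.58.1 in R 4.3.3, using the detection p for background, an offset of 16 and quantile normalisation. A probe was retained when its detection p fell under 0.05 on 4 or more arrays (18200 of 46632), and the retained probe of highest mean stood for a gene. After the study's methods, the model held treatment plus a term for each batch and replicate number, with eBayes and Benjamini-Hochberg adjustment over all retained probes. Values within and between batches came from 6 group means. Where a probe was not above background on all arrays of a group, the other group is given as "at least N-fold" against, on each array, the lowest detected signal or the probe's own signal if that was higher. The code was tested on simulated data.

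Groups came from the agent label. Replicate numbers did not pair the samples (same-numbered arrays deviated with r of -0.11 to 0.39). The sources differ on how many mice or hips stand behind an array, so p-values measure the spread between arrays, which may in part be technical, and the number of arrays limits the precision. They also differ on serum in the medium. Members, gene lists and motifs were chosen with earlier results of these data known. Named genes are all members, the genes of the 4 pathway lists that passed a test, and the 3 genes most like each member; genes named from the marker lists, and those named as dim, were chosen after their values were seen. Alternatives varied the background correction, scaling, offset, filter, replicate block, eBayes settings and fold threshold, and left out each array.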

Additional observations from a re-analysis of the deposited data

Results flagged for a closer look

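Over the 24 groups of 4 arrays examined (8 genes in 3 treatments), no array stood out from its group. Each group held 2 arrays of each batch, and batch levels widened its spread, so a single deviating array could hardly have been seen. For 12 values the treatment difference was not the same in the 2 batches by a test of the difference itself, given here as batch 2 minus batch 1 on the log2 scale. With IL-1α against untreated these were C1qb (-0.80), C3 (1.61) and Cfb (1.31). With RA against untreated they were C1s (-0.99), C3 (-1.38), Cfb (-1.0) and Cfd (0.86). With RA against IL-1α they were C1qa (0.97), C1qb (1.34), C3 (-2.99), Cfb (-2.31) and Cfd (1.36). The values for Cfb, and that for C1s, are not measured sizes, since in batch 1 the Cfb probe was above background on no untreated or RA array and the C1s probe on no RA array. Since batch 1 was Donut and batch 2 Gertrude throughout, line and batch cannot be told apart.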

How the results depend on the processing

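Of the alternatives tried for each count of members called, most left it within 1.5 times its value, with 1 exception. The count of effects that differ between batches with RA against untreated was moved further by 12 of 20 alternatives. Without the replicate block, with treatment and batch as terms, 8, 6 and 6 members were called with IL-1α against untreated, RA against untreated and RA against IL-1α, as with it. Without the replicate block and without batch, 4, 3 and 4 were called, the loss following from the batch levels then counting as spread. Scaling to one median left 3 of 8 calls between batches, and turned the batch difference of C2 to 0.30 and of Cfd to 0.13. Effects that differ between batches with RA against untreated numbered 1, in place of 4, both with detection on all 12 arrays and with no filter. Leaving out 1 array gave 1 to 3 such effects for IL-1α (3 with all arrays) and 1 to 3 for RA; the batch difference of C3 was kept throughout. Values near 0 changed sign: C1qa's batch difference with IL-1α was 0.14 with no background correction, 0.15 with an offset of 50 and -0.36 to 0.08 on leaving out 1 array, in place of -0.17. Cfp's was -0.12 under scaling to one median. Leaving out 1 array gave -0.05 to 0.13 for C2 with RA against IL-1α and -0.60 to 0.00 for Cfb with RA against untreated. Requiring detection on all 12 arrays removed C1s and Cfb. C1s, Cfb and Emr1 lie near background in batch 1, which limits their differences there. C1qa with IL-1α in batch 2 (5.35 and 5.06) lay close to the lowest detected signal of those arrays (5.07 and 5.02). Its batch difference with RA against IL-1α, 0.97, was 0.46 with an offset of 50 and 0.49 with no background correction. It passed under neither setting (limma adjusted p = 0.108 and 0.123).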
